A study of Mus musculus with 6 samples.

Results

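Imprinted genes and the noncoding RNAs transcribed with them were followed in RNA of mouse sperm nuclei and of whole sperm. The members were 54 genes known to be imprinted in mouse, taken by symbol, and all 54 had a row among the 23229 annotated genes of the count tables and in the table of RPKM (reads scaled by transcript length and library size). By the parental copy that is usually active in mouse tissues, 27 are paternally expressed, 23 are maternally expressed and 4 (Gnas, Grb10, H13 and Inpp5f) switch parent with the isoform or tissue. 8 members are noncoding RNAs. The active copy is background knowledge here: the counts do not separate alleles.

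All samples came from mature sperm of the transgenic line HP3.1 on a C57BL/6 background, taken from the cauda epididymis and vas deferens of mice aged 4 months; both fractions carry the transgene, and no other strain or treatment was compared. For the nuclei, sperm were filtered, broken by sonication and spun through sucrose and caesium chloride with the detergent Triton X-100, while whole sperm were extracted without these steps after a visual check for other cells. There are 6 samples because each of 3 preparations was run 2 times: nuclei 1, nuclei 2 and whole sperm. Runs were taken as combined, which leaves 2 nuclei libraries to compare with a single library of whole sperm. Nothing in the labels says which mice each preparation came from, so p-values measure only the spread between preparations, which may be technical. Whole-sperm values have no spread of their own.

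Genomic imprinting silences 1 parental copy of a gene through DNA methylation laid down in the germ line. In the male germ line the marks inherited from both parents are erased and the paternal pattern is set before meiosis, so that sperm carry methylated control regions at H19 and Igf2, at Dlk1 and Dio3 and at Rasgrf1, and unmethylated ones at most other imprinted clusters. In several clusters a long noncoding RNA that is transcribed from the unmethylated paternal copy, such as Kcnq1ot1 or Airn, silences its neighbours on the same chromosome. Transcription stops as the nucleus condenses, so RNA in mature sperm is left from earlier stages or taken up during transit.

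The libraries (nuclei 1, nuclei 2, then whole sperm, as in all lists of 3 values) held 5487306, 6648848 and 8316345 gene and region counts, and 3 counts, the limit that a count of 0 allows, came to 0.547, 0.451 and 0.361 CPM (counts scaled to library size). All 15 sperm and late spermatid markers had counts in each library, with 0.585%, 0.594% and 0.351% of counts. Markers of epididymal and vas deferens epithelium took 0.263%, 0.279% and 1.78%, with counts for 14, 13 and 14 of 25 genes; of the 14 tested, 2 (Crisp1 and Spink10, secreted by the epididymis) were called lower in nuclei by edgeR, beside 0.111% of tested annotated genes. General epithelial markers took 0.0118%, 0.0150% and 0.0488%, leukocyte markers 0.00505%, 0.00236% and 0.00752%, and smooth muscle and stromal markers 0.0166%, 0.0105% and 0.0156%. Of 9 Sertoli and Leydig cell markers, 3, 1 and 1 had counts, nearly all of them Sox9 with 144, 24 and 11. Amh was at 0 in every library in both tables. Hba-a1 and Hba-a2 had 0 counts in every library but RPKM values above 0 in nuclei 1 and whole sperm (0.785, 0 and 1.97 for Hba-a1). By these summed shares, epithelial markers took more of the counts in whole sperm than in nuclei. Crisp1 (55869 counts) and Akr1b7 (48143) held most of the 148309 epididymal marker counts in whole sperm. Single markers did not all go that way. The log2 fold change, nuclei over whole sperm, was above 0 for 3 of 14 tested epididymal markers and 2 of 11 general epithelial ones. The part of epithelial RNA in the differences below was not tested. In such bulk samples, fewer cells of a type and less RNA per cell cannot be told apart.

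Imprinted genes were a small part of sperm RNA, and most of their counts in nuclei were assigned to Kcnq1ot1, a very long RNA expressed from the paternal copy. Members took 0.190% of counts in nuclei 1 (95% exact Clopper-Pearson interval 0.186 to 0.194%), 0.0863% in nuclei 2 (0.0841 to 0.0886%) and 0.108% in whole sperm (0.106 to 0.111%); these intervals cover counting error only. Of the members' counts, Kcnq1ot1 alone held 73.9%, 61.1% and 28.8%. By RPKM its part was small: its RPKM was 4.00, 1.82 and 1.61, where the members summed to 75.4, 62.3 and 149.3. By counts per kilobase of exon it ranked 3rd among the members. Without it the other 53 members came to 0.0496%, 0.0336% and 0.0770%, so that the order of the libraries turned: the whole-sperm share lay between those of the nuclei with Kcnq1ot1 and above both without it.

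**Figure D1:**
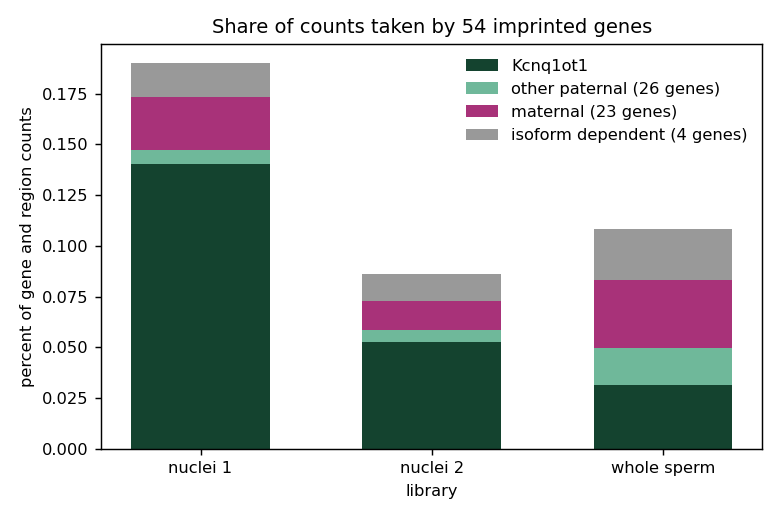
Percent of all gene and region counts (y axis) taken by the members in each library (x axis), stacked as Kcnq1ot1, the 26 other paternally expressed members, the 23 maternally expressed members and the 4 isoform-dependent members. Kcnq1ot1 is the tallest segment in both nuclei libraries, and the bars reach 0.190%, 0.0863% and 0.108%.

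Members were detected about as often as genes in general. A count was seen for 33, 27 and 36 of 54 members, or 61.1%, 50.0% and 66.7%, beside 59.8%, 52.8% and 63% of all annotated genes. In all, 40 members had a count somewhere, 29 reached 20 counts in any library, and 11 stayed between 1 and 19. The 14 members at 0 in every library included H19, the noncoding partner of Igf2, the paternally expressed Snrpn, Magel2, Mkrn3 and Peg12 of the Prader-Willi region, and Dlk1 and Dio3, which bound their own cluster. The rest were Zim1, Ddc, Phlda2, Ascl2, Nnat, Kcnk9 and Slc22a2. At the control regions that are methylated in sperm, members with and without counts stood side by side: H19, Dlk1 and Dio3 had none, while Igf2, Rasgrf1, Meg3, Rtl1, Rian and Mirg had counts in some library.

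No member was called higher or lower in nuclei. Of 34 members that passed the filter on low counts, edgeR's quasi-likelihood test with Benjamini-Hochberg adjustment called 0 at an adjusted p under 0.05, where 0.161% of the 16720 features tested were called. An unadjusted p under 0.05 was reached by 4 members (Igf2r, Impact, Kcnq1ot1 and Plagl1), beside 5.84% of all features. DESeq2 also called 0 of the 17 members it gave an adjusted p, where it called 1.94% of features, and limma on log2 RPKM called 0, as it did over all features (0%). Under an unadjusted p of 0.05 were 4 of 40 members by DESeq2 and 4 of 31 by limma, against 9.87% and 11.4% of all features. With 1 residual degree of freedom, the spread comes from the nuclei libraries and is pooled over genes. It is wide, with a common coefficient of variation of 1.3, and whole sperm has no replicate. A call thus needs a very large difference, and the absence of a call does not show that levels were alike.

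Most tested members had a lower fitted level in nuclei. The log2 fold change, nuclei over whole sperm, was below 0 for 22 of 34 members and above 0 for 12, with a median of -0.67, beside 0.27 over all features and -0.04 over all annotated genes tested. In 17 of the 34 both nuclei libraries lay below whole sperm, against 41.2% of tested annotated genes, and in 5 both lay above, against 26.1%. Paternally expressed members had a median of -0.78 (11 of 15 below 0) and maternally expressed members one of -0.28 (9 of 15 below 0). These medians moved with the library: against nuclei 1 alone they were -1.37 and 0.37, and against nuclei 2 alone -3.90 and -1.01, so that the maternal median changed sign. Over all features the medians of these fits were 0.07 and -0.33. The paternal medians rest on fewer members than the joint fit. Airn and Rtl1 had no value against nuclei 1 alone, and Rtl1 and Sgce had none against nuclei 2 alone. The members tested are those that passed the filter, and of 6 tested members with 10 or more counts in only 1 library, that library was whole sperm for 5. With every member that had a count fitted, 25 of 40 were below 0.

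**Figure D2:**
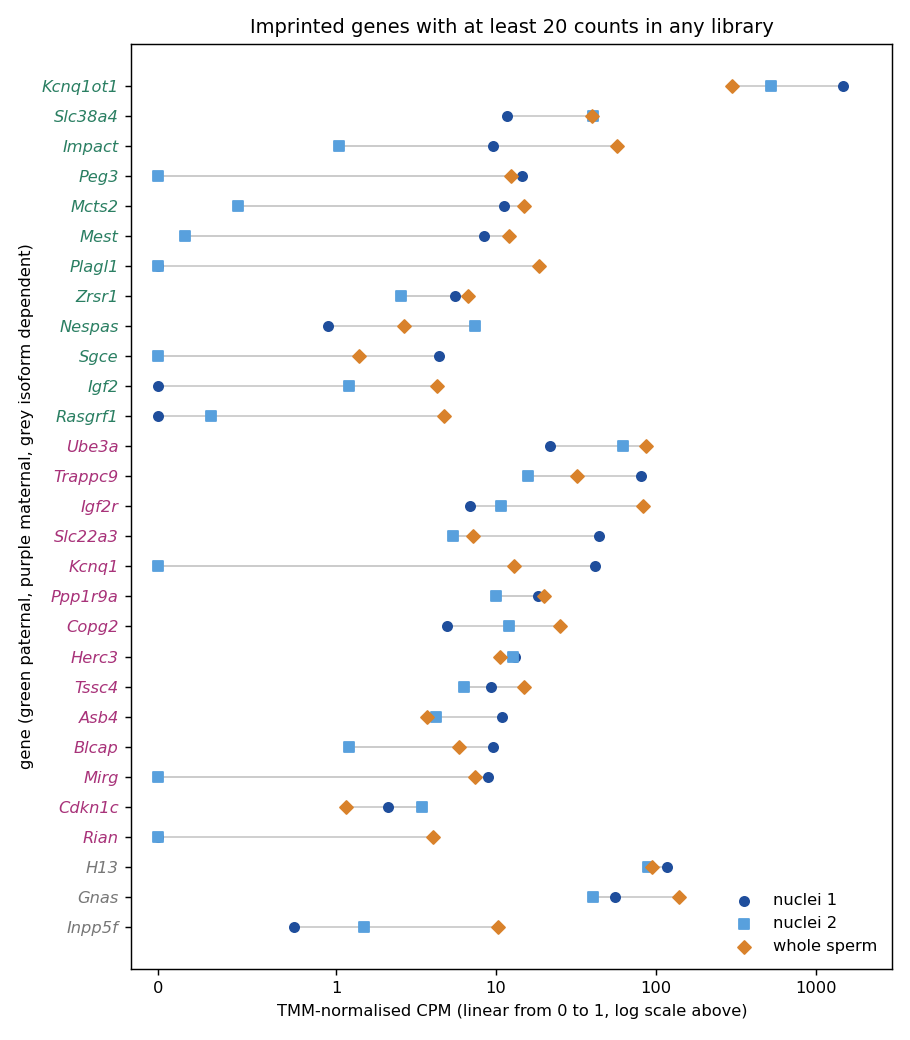
Level of each of the 29 members with at least 20 counts in any library, as TMM-normalised CPM (x axis, linear from 0 to 1 and logarithmic above), with 1 point for each library and names coloured by the copy usually expressed. Kcnq1ot1 lies far to the right of the others with both nuclei points above whole sperm. Peg3, Kcnq1, Sgce and Mirg have a nuclei 2 point at 0, and Plagl1 and Rian have both nuclei points at 0.

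Of 24 members with at least 20 counts in either nuclei library, 4 had no count in the other, a share near the 17.6% of annotated genes. These were Kcnq1, Peg3, Mirg and Sgce, each with counts in nuclei 1 and none in nuclei 2. In the RPKM table only Peg3 and Sgce were at 0 in nuclei 2, while Kcnq1 had 0.375 and Mirg 4.58 there.

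In the Kcnq1 cluster on chromosome 7, Kcnq1ot1 is an antisense RNA that starts inside Kcnq1 and silences the genes around it on the paternal copy. It was counted 7699, 3509 and 2596 times. As TMM-normalised levels these were 1469, 526 and 299.8 CPM, the most of any member in each library before gene length is taken into account. Both nuclei libraries stood above whole sperm, and nuclei 1 stood far above nuclei 2. The nuclei mean of 998 ± 667 CPM (SD, n = 2) gave a log2 fold change of 1.73 ± 0.83 (SE; edgeR adjusted p = 0.768), which was 2.38 against nuclei 1 alone and 0.82 against nuclei 2 alone. With spike-in scaling, which lowered the median of all features from 0.27 to -1.16, it was 0.31 (edgeR adjusted p = 0.887).

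The gene spans chr7:143203458-143296549 on the minus strand of mm10, 93092 bases annotated as a single exon in GENCODE vM21. By RPKM it was no longer the highest member: its RPKM was 4.00, 1.82 and 1.61, 12th by mean RPKM. Counts per kilobase of merged exons put it 3rd, at 15.8, 5.65 and 3.22 CPM per kilobase. In nuclei 1 that was the highest of the members, above H13 at 13.2. The measures per length thus differ for this gene. Of its bases only 121 are shared with exons of Kcnq1 on the other strand, but whether the counting used strand is not given in the sources used here, so reads from introns of Kcnq1 cannot be told from reads of Kcnq1ot1. Its start lies in the control region of the cluster. The window of 300 bases around the start, chr7:143296498-143296797 on the minus strand (RefSeq, GRCm38.p6), is shown because this RNA took most of the member counts in nuclei; capitals mark CCAAT boxes, the motif bound by NF-Y.

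Kcnq1ot1 start: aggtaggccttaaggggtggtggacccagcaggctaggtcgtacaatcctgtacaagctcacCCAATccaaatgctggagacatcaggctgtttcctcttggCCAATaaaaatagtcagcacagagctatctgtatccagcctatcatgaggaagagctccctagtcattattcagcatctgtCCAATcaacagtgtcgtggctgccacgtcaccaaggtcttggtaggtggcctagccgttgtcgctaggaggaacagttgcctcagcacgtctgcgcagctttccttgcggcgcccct

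This window holds 3 CCAAT matches and 9 CpG dinucleotides. Searched on both strands (CCAAT or ATTGG), 3 or more matches occur in 3.37% of the 32851 RefSeq start windows and in 3 of the 62 windows found for 43 of the 54 members. The motif TGCCGC, read by the imprint-protecting factor ZFP57 when methylated, was absent from it on either strand (TGCCGC or GCGGCA). It occurs in 22.6% of member windows and 11.6% of all windows; where the motifs abut, they can share an end letter. Member windows had a median of 13 CpG (10 for paternally and 15 for maternally expressed members), beside 7 over all windows. As TGCCGC holds a CpG itself, its shares are not compared at equal CpG content. Some member windows also overlap, such as those of Mest that begin at 30737800 and 30737803. An enrichment of the motif was not tested.

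The protein-coding genes of the same cluster had fewer counts but not always a lower level per length. Kcnq1, a potassium channel gene, had 217, 0 and 112 counts and an RPKM of 3.70, 0.375 and 2.65, on both sides of whole sperm. Tssc4, which encodes a factor of spliceosome assembly, had 49, 42 and 130 counts (9.35, 6.30 and 15.0 CPM), lower in both nuclei libraries. Its RPKM of 3.15, 3.31 and 3.43 was nearly level, and exceeded that of Kcnq1ot1 in nuclei 2 and whole sperm. By counts per kilobase of exon it exceeded Kcnq1ot1 in whole sperm only (8.14 beside 3.22 CPM per kilobase). Its log2 fold change was -0.94 ± 2.72 by counts (SE; edgeR adjusted p = 1.00) and -0.09 on log2(RPKM + 0.1), and 220 of its exon bases are shared with Trpm5, counted 13, 14 and 8 times. Cdkn1c, which encodes a cyclin-dependent kinase inhibitor that restrains growth, had 11, 23 and 10 counts. Slc22a18, a transporter gene, had 3 counts, all in whole sperm, and the growth-restraining Phlda2 and the placental transcription factor gene Ascl2 had none.

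On chromosome 17, Igf2r encodes the receptor that takes IGF2 to the lysosome, and Airn is the antisense RNA that silences it. Igf2r was counted 36, 72 and 722 times, or 6.87, 10.8 and 83.4 CPM. The nuclei libraries were close to each other and both far below whole sperm. Chosen for description after its values were seen, since it ranked 13th by mean RPKM, it had a log2 fold change of -3.24 ± 1.19 (SE; edgeR adjusted p = 0.435), 9.44-fold lower in nuclei. With spike-in scaling it was 1 of 4 members called lower (edgeR adjusted p = 0.002), where 3.26% of features were called lower. The others were Gnas, Impact and Plagl1 (edgeR adjusted p = 0.012, 0.010 and 0.044). This scaling used only the 23 spike-ins shared by all libraries, with 589074, 768443 and 364403 counts. These were all spike-in counts of the nuclei libraries but a small part of the 2570688 in whole sperm. Scaling by all spike-ins was not tried, so these calls depend on that choice. The summed epididymal markers were also lower in nuclei, at 0.263%, 0.279% and 1.78% of counts. Of the 14 tested, 11 were below 0 and 3 above. Whether epididymal RNA has a part in the Igf2r difference was not tested.

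Airn had 5, 10 and 11 counts, too few to order the libraries, and shares no exon base with Igf2r, although their transcripts overlap on opposite strands. Slc22a3, an organic cation transporter gene silenced by Airn in placenta, had 232, 36 and 62 counts, high in nuclei 1 only, and shares 420 exon bases with Plg, counted 29, 31 and 12 times. Its neighbour Slc22a2 had none. The start window of Igf2r, chr17:12769657-12769956 on the minus strand (RefSeq, GRCm38.p6), is shown beside that of Kcnq1ot1 because the fitted fold changes of these genes have opposite signs. It has 34 CpG, no CCAAT and no TGCCGC, so no letter is in capitals.

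Igf2r start: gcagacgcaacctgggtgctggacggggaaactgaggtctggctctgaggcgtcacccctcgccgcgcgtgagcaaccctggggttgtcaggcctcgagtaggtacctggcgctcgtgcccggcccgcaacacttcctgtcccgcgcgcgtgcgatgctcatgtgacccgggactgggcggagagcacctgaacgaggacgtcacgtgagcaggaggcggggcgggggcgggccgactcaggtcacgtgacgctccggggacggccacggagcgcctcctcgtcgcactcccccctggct

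**Figure D3:**
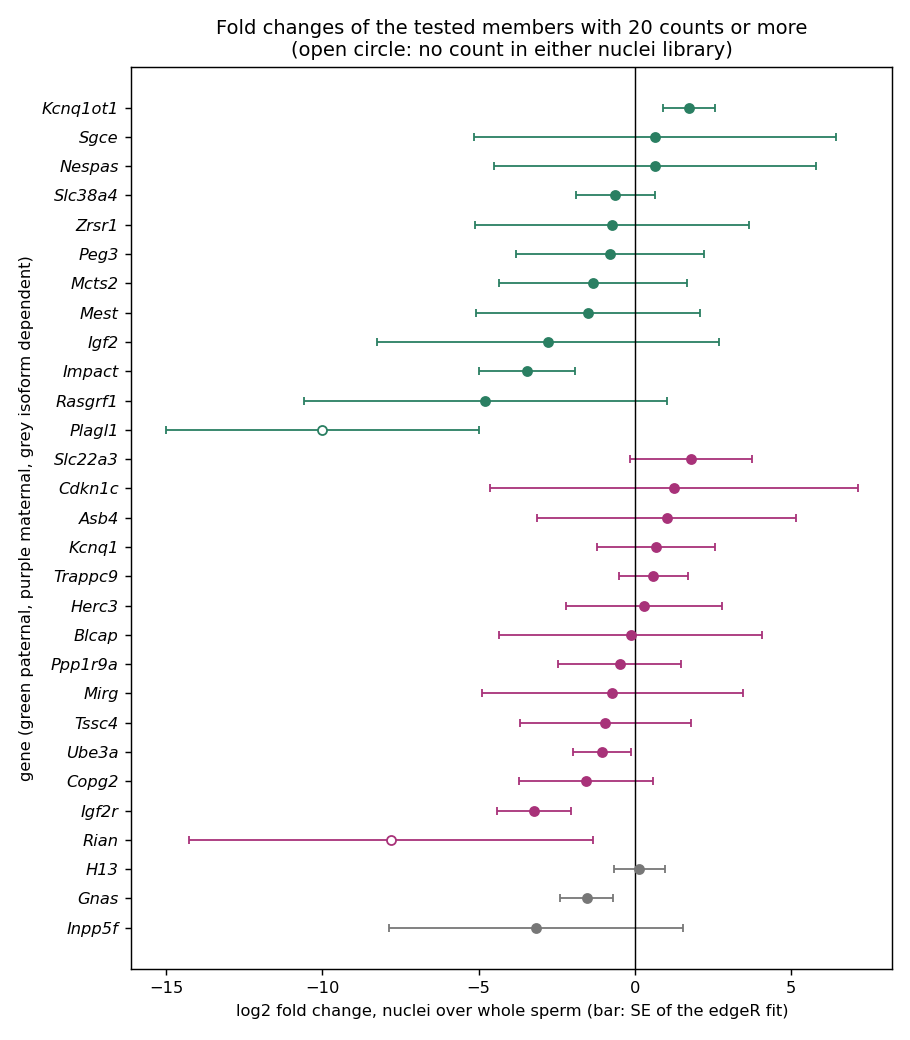
Log2 fold change of the 29 members with at least 20 counts in any library, nuclei over whole sperm (x axis), with the standard error of the edgeR fit as bars and names grouped by the copy usually expressed. Bars of 1 SE are clear of 0 for Kcnq1ot1 above it and for Igf2r, Impact, Gnas, Ube3a, Plagl1 and Rian below it, and open circles (Plagl1 and Rian, with no count in nuclei) are fitted values that depend on the prior count.

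Gnas and H13 were the members with the highest mean RPKM, although Snrpn was highest in nuclei 1 (12.7, beside 12.5 for Gnas). By counts per kilobase of exon H13 ranked 1st and Gnas 5th. Gnas, which encodes the stimulatory G protein alpha subunit and related proteins from several promoters, had 290, 268 and 1203 counts (55.3, 40.2 and 139 CPM). Both nuclei libraries lay well under whole sperm and near each other. Its nuclei mean of 47.8 ± 10.7 CPM (SD, n = 2) gave a log2 fold change of -1.54 ± 0.84 (SE; edgeR adjusted p = 0.909), and its RPKM was 12.5, 11.4 and 49.8. Nespas, the antisense RNA that controls the Gnas promoters, had 5, 49 and 23 counts, on both sides of whole sperm. As 988 exon bases are shared by Gnas and Nespas, 31.4% of the exons of Nespas, counts of this pair could be split by the counting.

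H13, which encodes signal peptide peptidase, had 614, 595 and 811 counts, close in all 3 libraries at 117, 89.2 and 93.7 CPM. The log2 fold change was 0.14 ± 0.82 (SE; edgeR adjusted p = 1.00), and its sign is not settled, since the RPKM of 8.04, 8.85 and 11.7 put both nuclei libraries below whole sperm. Mcts2, a retrogene copied into an intron of H13 whose paternal expression is tied to the choice of H13 polyadenylation site, had 59, 3 and 129 counts (11.3, 0.450 and 14.9 CPM), nearly absent from nuclei 2. The host and the retrogene share no exon base, and the parent gene Mcts1 had 15, 6 and 1 counts. The log2 fold change of Mcts2 was -1.35 ± 3.01 (SE; edgeR adjusted p = 0.992), and -0.32 against nuclei 1 alone but -4.99 against nuclei 2 alone.

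Among the other retrogenes, Zrsr1, which encodes a splicing factor-like protein from an intron of Commd1, had 29, 17 and 58 counts (5.53, 2.55 and 6.70 CPM), lower in both nuclei libraries. Its host Commd1, an endosomal sorting gene, had 1, 0 and 3 counts, although 412 exon bases are shared, and the related Zrsr2 had 17, 0 and 5. Nap1l5, in an intron of Herc3, had 3 counts, all in whole sperm, while Herc3, a ubiquitin ligase gene, had 69, 85 and 92 counts (13.2, 12.7 and 10.6 CPM). Its nuclei libraries were close to each other and a little above whole sperm in CPM, but its RPKM of 0.894, 1.66 and 1.04 put nuclei 1 below whole sperm. The more widely expressed relative Nap1l1 had 310, 356 and 759 counts.

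In the Prader-Willi and Angelman region, Ube3a, the ubiquitin ligase gene expressed from the maternal copy in neurons, had 114, 415 and 752 counts (21.8, 62.2 and 86.9 CPM). Whole sperm was highest, and nuclei 2 lay nearer to it than to nuclei 1. Its log2 fold change was -1.05 ± 0.93 (SE; edgeR adjusted p = 0.909), -1.91 against nuclei 1 alone and -0.47 against nuclei 2 alone. Exons of 20626 bases overlap those of the antisense RNA Snhg14, which had no row in the count tables, by 1803 bases.

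Snrpn, which encodes the spliceosomal protein SmN from the paternal copy, was counted 0 times in each library and yet had an RPKM of 12.7, 6.64 and 5.65. Snurf, read from the same transcript, had the same pattern, with 0 counts and an RPKM of 12.7, 6.64 and 5.65. This disagreement is rare: 0.457% of 6133 annotated genes without counts had an RPKM of 1 or more in every library. The tables thus leave opposite pictures of Snrpn, at 0 by counts and the third highest member by RPKM; how each table treated reads that fall on both genes is not given in the sources used here. On log2(RPKM + 0.1), its difference was 0.69 (limma adjusted p = 0.738). Ndn, a MAGE family gene nearby, had 1 count in all.

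**Figure D4:**
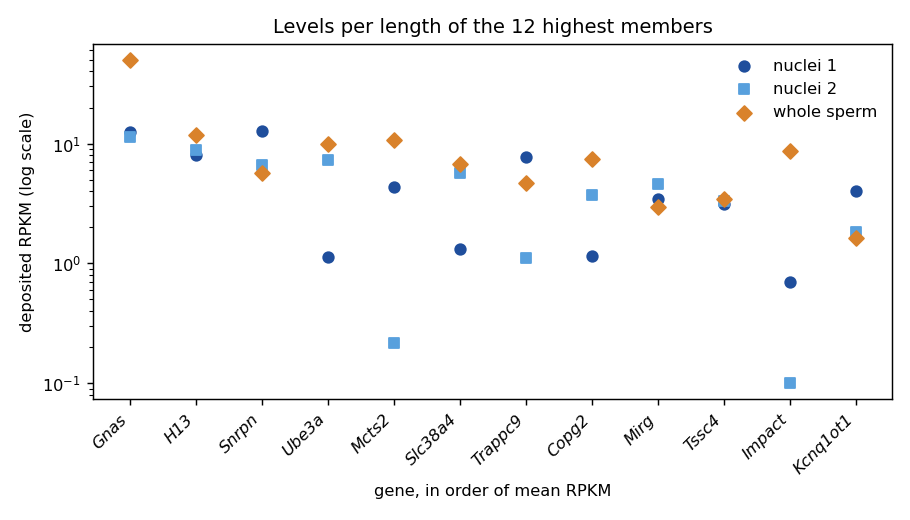
Deposited RPKM (y axis, log scale) of the 12 members with the highest mean RPKM (x axis, in order of the mean), with 1 point for each library. Gnas is highest in whole sperm at 49.8, Mcts2 and Impact fall far lower in nuclei 2 than in whole sperm, and Snrpn has RPKM values of 12.7, 6.64 and 5.65 despite having no count.

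The Dlk1-Dio3 cluster on chromosome 12 carries protein-coding genes on the paternal copy and a chain of noncoding RNAs, with many miRNA and snoRNA genes, on the maternal copy. Meg3, the long noncoding RNA at its start, had 11, 10 and 19 counts and an RPKM of 0.147, 0.0720 and 0. Rian, host of snoRNAs, had 35 counts in whole sperm and none in nuclei. Against a floor of 3 counts per library it was at least 7.91-fold lower (fitted log2 -7.80 ± 6.46 SE, edgeR adjusted p = 0.909). The floor covers counting error only, not the spread between preparations. Rtl1, a retrotransposon-derived gene named after its values were seen, went the other way, with 12 and 10 counts in nuclei and none in whole sperm, at least 5.47-fold higher against that floor. It holds 6 miRNA genes on the opposite strand, so the strand of these reads matters and is not known.

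Mirg, host of the last miRNAs of the cluster, had 47, 0 and 64 counts, but an RPKM of 3.47, 4.58 and 2.94. By counts nuclei 2 was the lowest library, and by RPKM it was the highest. The log2 fold change was -0.72 ± 4.18 by counts (SE; edgeR adjusted p = 1.00) and 0.43 on log2(RPKM + 0.1) (limma adjusted p = 0.738). A pair of regions that the authors assembled from their reads and counted apart from annotated genes lies inside Mirg. The region TCONS_00008474, chr12:109732007-109733085 (mm10), lies outside the annotated exons of Mirg and had 479, 679 and 368 counts, or 91.4, 101.8 and 42.5 CPM. Both nuclei libraries were above whole sperm (log2 1.18 ± 0.92 SE; edgeR adjusted p = 0.909). The region TCONS_00008476, chr12:109733214-109733563, has 283 of its 350 bases in a Mirg exon and had 96, 155 and 55 counts. Both nuclei libraries were above whole sperm there too, and in each library the pair of regions took more counts than the Mirg gene.

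**Figure D5:**
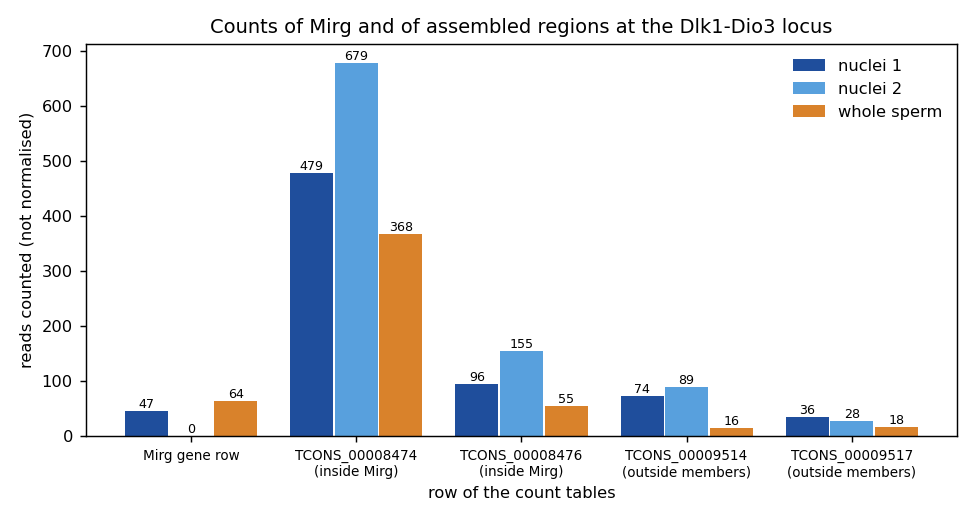
Reads counted (y axis, not normalised) for the annotated gene Mirg and for assembled regions of the Dlk1-Dio3 cluster (x axis), with 1 bar for each library and the count above it. The region TCONS_00008474 has 479, 679 and 368 counts where Mirg itself has 47, 0 and 64.

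The miRNA genes of the imprinted clusters had almost no counts in these libraries. Whether RNAs this short could be captured and counted here was not tested. Of 75 such genes, 65 had a row, and 4 had a count, all in the Dlk1-Dio3 cluster, which holds 58. Mir376b had 15 counts and Mir485 had 13, all in nuclei 2, Mir539 had 21 counts, all in whole sperm, and Mir134 had 1, in nuclei 2. Each was seen in a single library, so no order of the fractions can be read. A count cannot say whether a read came from a mature miRNA, its hairpin or the host transcript, and Mir485 and Mir134 lie in Mirg. The mature forms that RefSeq gives (GRCm38.p6) for the 3 genes with over 10 counts are shown as the only imprinted miRNAs with more than a stray read. Capitals mark the seed, bases 2 to 8, and no seed is shared.

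mmu-miR-376b-5p: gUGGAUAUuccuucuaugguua
mmu-miR-376b-3p: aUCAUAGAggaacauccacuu
mmu-miR-539-5p: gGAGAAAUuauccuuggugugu
mmu-miR-485-3p: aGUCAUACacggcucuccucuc

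Plagl1 and Igf2 were low or absent in nuclei. Plagl1, a zinc finger transcription factor gene that regulates other imprinted genes, had 161 counts in whole sperm (18.6 CPM, RPKM 1.62) and none in nuclei. It was the member with most counts in whole sperm that was at 0 in both nuclei libraries. Against the floor of 3 counts per library, which covers counting error only, it was at least 36.4-fold lower (edgeR adjusted p = 0.828, given in full after its values were seen). Igf2, the fetal growth factor, had 0, 8 and 37 counts, lowest in nuclei. Grb10, an adaptor that restrains growth signalling, had 0, 12 and 3 counts, and its neighbour Ddc had none.

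Impact and Slc38a4 differed between nuclei 1 and nuclei 2, though less than Mest (8.40 and 0.150 CPM) or Mcts2 (11.3 and 0.450 CPM). Impact, a paternally expressed regulator of translation, had 50, 7 and 497 counts (9.54, 1.05 and 57.4 CPM). Both nuclei libraries were far below whole sperm, and the log2 fold change was -3.44 ± 1.53 (SE; edgeR adjusted p = 0.672), 10.8-fold lower in nuclei. Against nuclei 1 alone it was -2.50 and against nuclei 2 alone -5.74. Slc38a4, an amino acid transporter gene expressed from the paternal copy in placenta, had 61, 268 and 346 counts (11.6, 40.2 and 40.0 CPM). Nuclei 2 was level with whole sperm and nuclei 1 lay below both, with a log2 fold change of -0.62 ± 1.27 (SE; edgeR adjusted p = 0.988), -1.69 against nuclei 1 alone and 0.02 against nuclei 2 alone.

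Unlike Slc38a4, Trappc9, which encodes a subunit of a vesicle tethering complex, was higher in nuclei 1 than in nuclei 2. It had 423, 106 and 278 counts (80.7, 15.9 and 32.1 CPM), so whole sperm lay between them. Its log2 fold change was 0.59 ± 1.11 (SE; edgeR adjusted p = 0.984), 1.42 against nuclei 1 alone and -1.01 against nuclei 2 alone. Peg13, the paternally expressed noncoding RNA in an intron of Trappc9, had 2, 0 and 16 counts, and Kcnk9, a potassium channel gene beside them, had none.

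At the Mest locus, Mest, a hydrolase-fold gene, had 44, 1 and 105 counts (8.40, 0.150 and 12.1 CPM), lower in both nuclei libraries. Copg2, a coatomer subunit gene that meets Mest tail to tail, had 26, 80 and 216 counts (4.96, 11.99 and 24.9 CPM), also lower in both. The log2 fold change of Copg2 was -1.55 ± 2.14 (SE; edgeR adjusted p = 0.936), -2.24 against nuclei 1 alone and -1.05 against nuclei 2 alone. They share 912 exon bases, 23.1% of the exons of Mest, on opposite strands. In the Peg3 cluster, Peg3, a zinc finger gene with a role in maternal behaviour, had 76, 0 and 108 counts (14.5, 0 and 12.5 CPM), near whole sperm in nuclei 1 and at 0 in nuclei 2. Usp29 beside it had 2 counts, in nuclei 1, and shares 2582 exon bases with Zim3, which had 5 counts, in whole sperm.

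Of the Peg10 and Sgce cluster, Peg10, a retrotransposon-derived gene needed in placenta, had 7 counts, all in nuclei 1. Sgce, a sarcoglycan gene, had 23, 0 and 12 counts. Asb4, a ubiquitin ligase adaptor, had 57, 28 and 32 counts (10.9, 4.20 and 3.70 CPM), above whole sperm in both nuclei libraries in CPM, whereas its RPKM of 0.944, 0.335 and 0.649 put nuclei 2 below. Ppp1r9a, a protein phosphatase regulator, had 96, 67 and 172 counts (18.3, 10.04 and 19.9 CPM), below whole sperm in both.

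Inpp5f and Rasgrf1 were mostly counted in whole sperm. Inpp5f, an inositol phosphatase gene, had 4, 10 and 89 counts, and Rasgrf1, a Ras exchange factor gene, had 0, 2 and 41. In both, the nuclei libraries lay far under whole sperm. Blcap, a promoter of apoptosis whose gene overlaps Nnat, had 50, 8 and 51 counts (9.54, 1.20 and 5.89 CPM), on both sides of whole sperm. The 6 members with a count that were too low to test (Commd1, Nap1l5, Ndn, Peg10, Slc22a18 and Usp29) had at most 7 counts in a library.

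Genes that set, read or protect imprints took 0.131%, 0.184% and 0.161% of counts. Most of this was Arid4b, with 4230, 7462 and 6964 of their 7180, 12258 and 13425 counts. In a list of 28 such genes, 26 were tested and edgeR and DESeq2 each called 0, with 2 under an unadjusted p of 0.05 in edgeR and a median log2 fold change of 0.02. Arid4b, a chromatin protein with a part in imprinting of the Prader-Willi region, had 807, 1119 and 804 CPM. Trim28, the corepressor recruited by ZFP57, had 60.1, 210.3 and 82.2 CPM, on both sides of whole sperm. Rbbp4, a histone chaperone of Polycomb and deacetylase complexes, had 84.0, 75.0 and 112 CPM, and Ehmt2, a histone methyltransferase, had 88.4, 79.3 and 22.5 CPM. Ehmt2 was above whole sperm in both nuclei libraries (log2 1.90; edgeR adjusted p = 0.908), also by RPKM. Arid4b was not below whole sperm in either by CPM, but its RPKM of 53.9, 88.8 and 88.7 put nuclei 1 below. The genes under an unadjusted p of 0.05 were both lower in nuclei: Zfp445, an imprint-protecting zinc finger gene, with 18.1, 29.8 and 106 CPM (log2 -2.14; edgeR adjusted p = 0.663), and Smchd1, a chromatin protein gene, with 22.5, 13.2 and 86.7 CPM (log2 -2.28; edgeR adjusted p = 0.728). Spike-in scaling called these 2 lower (log2 -3.58 and -3.71; edgeR adjusted p = 0.007 and 0.011), where it called 3.26% of features lower.

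Another list held 40 further imprinted genes and neighbours, of which 36 had a row, 21 were tested and edgeR and DESeq2 each called 0, with 0 under an unadjusted p of 0.05 in edgeR. Their median log2 fold change was 0.67, of the opposite sign to that of the members, and no test of the difference was made. Sfmbt2, a Polycomb group gene, was highest with 224, 155 and 119 CPM. Zdbf2, whose paternal copy is expressed, had 184, 104 and 124 CPM. Pde10a, a phosphodiesterase gene, had 163, 60.1 and 60.2 CPM, and Dhcr7, of cholesterol synthesis, had 56.3, 90.4 and 45.5 CPM. Sfmbt2 was above whole sperm in both nuclei libraries, also by RPKM, while Dhcr7 was so in CPM but had an RPKM of 7.45, 16.8 and 10.6.

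The authors also deposited whole-sperm counts less the mean of the nuclei counts, set to 0 where negative. Of the 36 members with a count in whole sperm, 6 were set to 0 by this step, beside 4761 of 14630 annotated genes. Members kept 45.0% of their whole-sperm counts and annotated genes kept 40.3%.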

How the data were processed

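RNA counts of 6 samples, taken as 2 runs combined in 1 column for each of 3 preparations, were read from the deposited count tables, which hold whole reads per gene or region and were not normalized by the authors. RPKM values were used as the authors deposited them. The authors' deposited adjusted whole-sperm column was handled as a score. The submitters' processing notes name build mm10 and the tools HTSeq, DESeq2, bedtools, TopHat2 2.0.12, CASAVA 1.8.2, SAMtools 0.1.19 and Cufflinks 2.1.1, without saying what each was used for.

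Nuclei and whole sperm were compared with edgeR 4.0.16 in R 4.3.3 (TMM factors, filterByExpr, quasi-likelihood test, Benjamini-Hochberg adjustment over 16720 features, threshold 0.05). Since edgeR estimated infinite prior degrees of freedom, standard errors and p-values reflect a spread pooled over genes, and whole sperm is assumed to vary like nuclei. Alternatives were DESeq2 1.42.0, other size factors, ERCC spike-in scaling (23 shared spike-ins), other filters, limma 3.58.1 on log2(RPKM + 0.1) or log2(RPKM + 1), and each nuclei library left out. Positions come from GENCODE vM21 and start windows and miRNAs from RefSeq (GRCm38.p6), where 43 of 54 members matched. Members with at least 20 counts in any library, the partners of overlapping pairs and the 4 highest genes of each list were named; full statistics were given for the 12 members with the highest mean RPKM. The members, lists and allele assignments were chosen with earlier results of these data known.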

Additional observations from a re-analysis of the deposited data

Results flagged for a closer look

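Signal was found in rows that belong to no member. The assembled region TCONS_00008474, inside Mirg but outside its annotated exons, had 479, 679 and 368 counts (nuclei 1, nuclei 2, whole sperm). TCONS_00008476, mostly in an exon of Mirg, had 96, 155 and 55 counts. All these values exceed the limit of 3 counts that a count of 0 allows. Regions between members of the Prader-Willi and Angelman cluster had other patterns. TCONS_00037977 had 74, 21 and 243 counts, and TCONS_00037980 had 119, 2 and 114. TCONS_00037975 and TCONS_00037982 had 24 and 40 counts, in nuclei 1 only, and TCONS_00037985 had 66, in nuclei 2 only. The miRNA genes at the members' loci summed to 29 counts in nuclei 2 and 21 in whole sperm, and to 0 in nuclei 1.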

How the results depend on the processing

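No paired analysis was possible because whole sperm has 1 preparation. No member was called under DESeq2 size factors, library size alone, DESeq2, no filter, a minimum mean of 10 CPM or the 3 limma settings on RPKM. Spike-in scaling assumes equal amounts of spike-in. It used all spike-in counts of the nuclei libraries but only 364403 of the 2570688 in whole sperm. With it, 4 members and 2 genes of the imprint list were called lower. It put 91.2% of tested members below 0 in place of 64.7% (all features 66.7% in place of 45.6%). Its medians were -2.10 over members and -1.71 over maternally expressed ones. With limma on log2(RPKM + 0.1), 77.4% were below 0 (all features 59.5%). Leaving out a nuclei replicate gave paternal medians of -3.90 to -1.37, over fewer members than the joint fit. Of 112 tested values for 13 single genes, 97 kept direction and side of the threshold, 4 passed it (with spike-in scaling) and 11 changed sign. Of 28 values with no adjusted p, 24 kept direction and 4 changed sign. H13 was at -1.29 with spike-in scaling, -0.47 and -0.43 on RPKM with pseudocounts of 0.1 and 1, -0.47 there without a filter, and -0.063 to 0.41 with a nuclei replicate left out. Trappc9 was at -0.83, -0.64, -0.41 and -0.64, and -1.01 to 1.42. Mirg was at 0.43, 0.34 and 0.43 on RPKM and -8.82 to 0.37 with a replicate left out, and Slc38a4 at -1.69 to 0.015. The cause was not tested. Of the 12 highest members per length, 9 were shared when counts per kilobase replaced RPKM. Members' shares without Kcnq1ot1, a choice added after seeing the data, were 0.0496%, 0.0336% and 0.0770%. For the 25 members under 20 counts in every library, too little depth, real absence and the counting rules cannot be told apart. Among them, counts and RPKM disagree on a value of 0 for Snrpn in every library. They do so in whole sperm for Meg3 (19 counts, RPKM 0) and Usp29 (0 counts, RPKM 0.016).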
